A study of Mus musculus with 6 samples.

Results

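Transcripts of the bone morphogenetic protein (BMP) and transforming growth factor beta (TGF-beta) pathways were followed in the soft palate of mouse embryos with and without the homeobox transcription factor Dlx5. The 40 genes were taken by symbol from a list of ligands, receptors, Smads, targets and antagonists, out of 49492 gene rows, and all 40 were found. The libraries were 3 from Dlx5-/- embryos and 3 from wild-type embryos at stage E14.5, made from poly(A)-selected RNA of the posterior part of the palate. No further allele or agent is named in the labels, and nothing there says whether a library came from 1 embryo or several. The p-values therefore measure the spread between these libraries, which may in part be technical.

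In both pathways a secreted dimer brings type I and type II receptors together on the cell surface, and the type I receptor phosphorylates receptor Smads that enter the nucleus with Smad4. BMP receptors act on Smad1, Smad5 and Smad9, while activin and TGF-beta receptors act on Smad2 and Smad3. BMP signals pattern the palatal shelves and the bones around them, and TGF-beta ligands act in palatal fusion and in the myogenic and tendon cells of the soft palate. Dlx5 itself is known as a target of BMP signalling in bone-forming cells.

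Libraries held 8741020 to 11492409 estimated counts in Dlx5-/- and 6891798 to 11922442 in the wild type. Levels are counts of a gene per 1000000 counts of the library, with TMM normalization (CPM), and fold changes are log2 of Dlx5-/- over wild type. Dlx5 had 7, 15 and 17 counts in Dlx5-/- libraries and 242, 193 and 113 in wild-type libraries, so all 6 matched their labels. Palatal mesenchyme markers (4 of 8 with higher estimates and 4 lower) were present in every library. Their summed level was 769 to 848 CPM in Dlx5-/- and 619 to 720 CPM in the wild type over 8 of 8 genes. Tbx22, one of these markers, was low, at 0.302 to 2.72 CPM in Dlx5-/- and 1.30 to 3.73 CPM in the wild type. The palatal mesenchyme sums thus did not overlap between the groups. Of that list 3 genes had an unadjusted p under 0.05 (edgeR), all higher in Dlx5-/-. Some marker lists of other cell types differed as well. Neuron markers (7 of 8 with lower estimates) summed to 1483 to 2023 CPM in Dlx5-/- and 2937 to 3758 CPM in the wild type, and endothelial markers (7 of 8 lower) to 317 to 378 CPM in Dlx5-/- and 396 to 476 CPM in the wild type. Skeletal muscle markers (8 of 8 higher) summed to 950 to 2477 CPM in Dlx5-/- and 763 to 1320 CPM in the wild type, which overlapped. Mature brain markers summed to 217 CPM in Dlx5-/- replicate 3 and to 12.4 to 27.5 CPM in the other libraries. In these bulk samples fewer cells of a type and less RNA per cell cannot be told apart, and the part of these cell types in the differences described next was not tested.

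All 40 genes passed the filter of a mean of 1 CPM, and none passed the test between genotypes. At an adjusted p under 0.05 (edgeR quasi-likelihood, Benjamini-Hochberg over 16218 genes) 0 of 40 were called, where 0.00617% of all genes were, a single gene that was Dlx5. At an unadjusted p under 0.05 there were 6 of 40 genes (15.0%), beside 12.8% of all genes: 3 were higher in Dlx5-/- (5.6% of all genes were) and 3 lower (7.23%). These were Smad9, Chrdl1, Tgfb2, Id4, Smad3 and Smad2. The groups did not overlap for 9 of 40 genes (22.5%), beside 19.2% of all genes, with 4 higher (9.48% of all genes) and 5 lower (9.71%). Both shares were near those of all genes. DESeq2 called 2 of the 40, beside 3.12% of all genes: Tgfb2 was higher (0.74% of all genes were) and Id4 lower (2.38%), while limma-trend and limma-voom called 0.

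Most of the pathway differed little between the genotypes. For 28 of 40 genes the estimate was under 0.25 on the log2 scale in either direction, and for 25 the 95% interval lay within a 1.5-fold change. Estimates were above 0 for 21 genes and below 0 for 19, with a median of 0.038 beside 0.014 over all genes tested. By role, the median was 0.042 for 7 BMP family ligands, -0.041 for 6 BMP and activin receptors, -0.053 for 8 Smads and 0.014 for 4 Id genes. It was -0.032 for 3 TGF-beta ligands, -0.086 for 3 TGF-beta receptors, 0.36 for 2 activin subunits and 0.18 for Ltbp1 and Tgfbi. For 5 antagonists it was 0.32, against 0.082 without Dlx5-/- replicate 3.

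**Figure D1:**
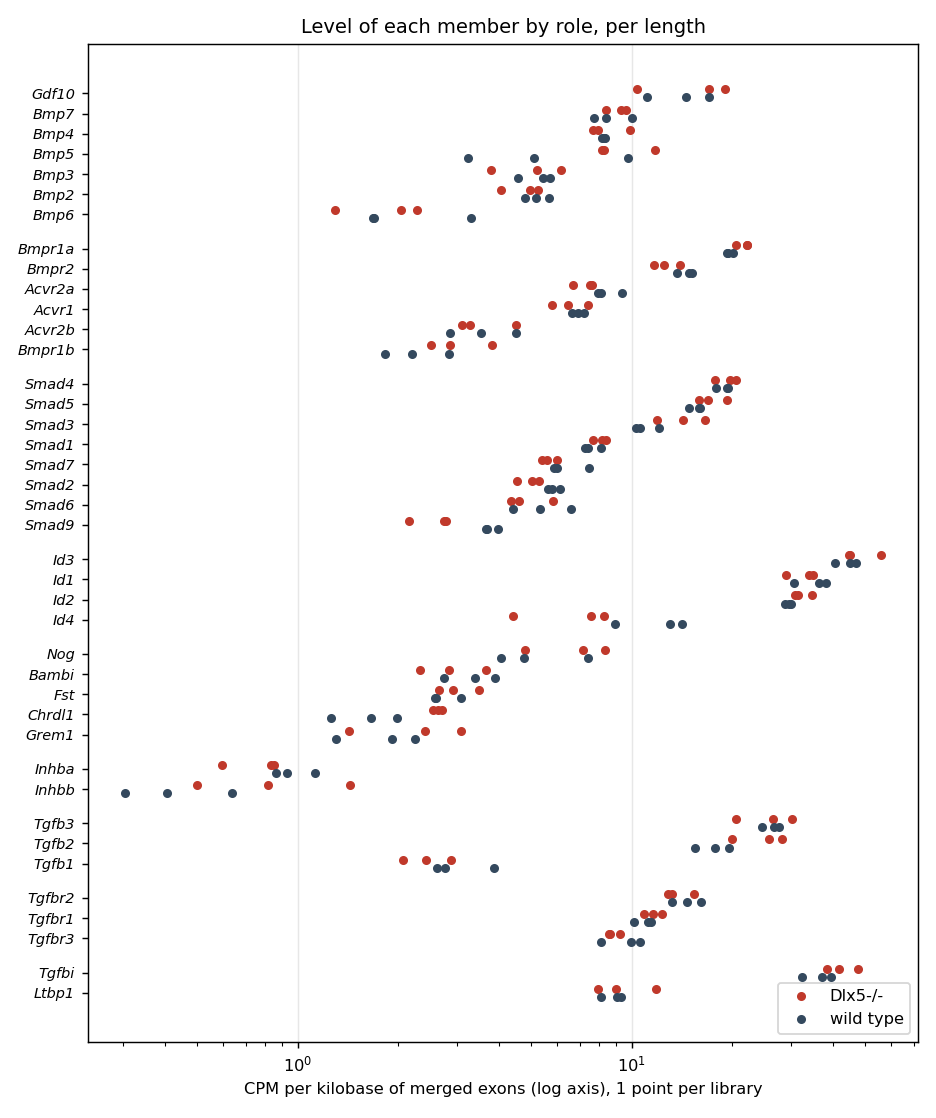
Level of each of the 40 genes by role, in CPM per kilobase of merged exons on a log axis, with 1 point per library (Dlx5-/- above wild type). Id3, Tgfbi, Id1 and Id2 sit highest and the activin subunits Inhba and Inhbb lowest in both genotypes. The points of the genotypes do not overlap for 9 of the 40 genes, among them Smad9, Chrdl1 and Id4.

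Per length, the most abundant transcripts were targets rather than ligands. Id3 had 48.5 CPM per kilobase of merged exons in Dlx5-/- and 44.2 in the wild type. Tgfbi, an extracellular matrix protein induced by TGF-beta, followed at 42.7 in Dlx5-/- and 36.4 in the wild type. Id1 had 32.7 in Dlx5-/- and 35.1 in the wild type, and Id2 had 32.4 in Dlx5-/- and 29.6 in the wild type. The first 5 places in this order were held by the same genes in both genotypes, the fifth being Tgfb3, and the libraries of the neighbours Id1 and Id2 overlapped in Dlx5-/- and did not in the wild type. Of the 40 genes, Id4 differed most in its place, at place 23 in Dlx5-/- and 13 in the wild type. At the other end, the activin subunit genes Inhba and Inhbb had 0.759 and 0.918 CPM per kilobase in Dlx5-/- and 0.973 and 0.448 in the wild type.

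**Figure D2:**
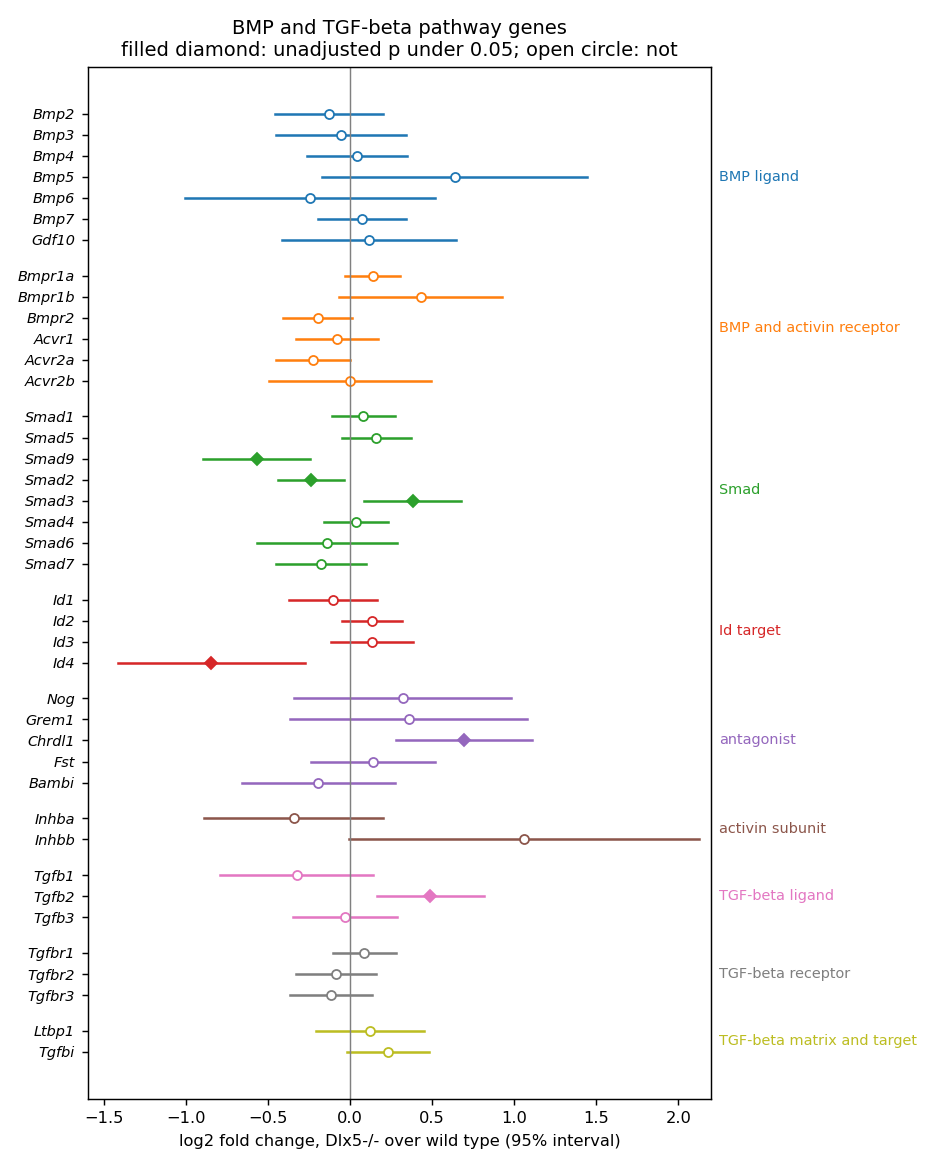
Log2 fold change of Dlx5-/- over wild type for the 40 genes by role, with 95% intervals from the edgeR fit. Filled diamonds mark the 6 genes with an unadjusted p under 0.05, and none of the 40 passed after adjustment over all genes.

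Among the 7 listed BMP ligands, which are the start of the pathway, no gene separated the genotypes by its level. Gdf10, a divergent member of the family also called Bmp3b, was the most abundant, at 80.7 ± 23.5 CPM in Dlx5-/- and 74.3 ± 15.6 CPM in the wild type (SD, n = 3 each, as in all such values). It made up 28.3% of the summed level per length of the 7 ligands in Dlx5-/- and 28.4% in the wild type. Bmp4, a main ligand of the palatal and dental mesenchyme and epithelium, had 19.1 ± 2.72 CPM in Dlx5-/- and 18.6 ± 0.199 CPM in the wild type, with a log2 fold change of 0.042 (95% interval -0.26 to 0.35). Bmp7, a ligand of epithelia and mesenchyme, had 36.6 ± 2.57 CPM in Dlx5-/- and 34.9 ± 4.79 CPM in the wild type, and its interval of -0.20 to 0.34 also lay within a 1.5-fold change. Bmp2, a bone-inducing ligand, made up 8.53%, 8.94% and 8.99% of the 7 ligands per length in Dlx5-/-. Its wild-type shares were 9.46%, 11.3% and 10.8%, without overlap. The log2 fold change of Bmp2 was -0.13 (-0.46 to 0.20). Bmp3, which antagonizes other BMPs in bone, had one of -0.058 (-0.45 to 0.34).

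Bmp5, a ligand of cartilage condensations, varied the most among wild-type libraries. It had 47.3, 32.8 and 33.3 CPM in Dlx5-/- and 39.4, 13.1 and 20.6 CPM in the wild type. The groups overlapped through wild-type replicate 1, with an estimate of 0.64 on the log2 scale (SE 0.35; adjusted p = 0.502, edgeR). Without wild-type replicate 1 it was 1.19, and without wild-type replicate 2 it was 0.32. Chondrocyte markers (7 genes found of 8 listed, 7 with higher estimates) summed to 4950, 6215 and 2232 CPM in Dlx5-/-. Their wild-type sums were 5140, 2139 and 2927 CPM. Of these markers only Sox9 did not overlap between the groups. Sox9 had 374, 299 and 286 CPM in Dlx5-/- and 265, 120 and 171 CPM in the wild type. The part of cartilage cells in the spread of Bmp5 was not tested. Bmp6 was the least abundant of the 7 listed ligands, at 5.05 to 8.91 CPM in Dlx5-/- and 6.58 to 12.9 CPM in the wild type. It shares 224 exon bases with Txndc5 on the opposite strand. Txndc5 had a mean of 155 CPM in Dlx5-/- and 145 CPM in the wild type. The use of strand in counting is not given, and the part of Txndc5 reads in the Bmp6 values was not tested.

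No BMP or activin receptor reached an unadjusted p under 0.05. Bmpr1a, the main type I BMP receptor of craniofacial mesenchyme, had 130.2, 140.8 and 140.6 CPM in Dlx5-/- and 127.6, 124.0 and 122.8 CPM in the wild type. Every Dlx5-/- library lay above every wild-type library, by a small step (log2 fold change 0.14, SE 0.07; adjusted p = 0.485, edgeR). Bmpr1a made up 69.3% of the summed level per length of the type I receptors Bmpr1a, Bmpr1b and Acvr1 in Dlx5-/- and 68.1% in the wild type. Bmpr1b, a type I receptor of cartilage, had a log2 fold change of 0.43 (SE 0.22; adjusted p = 0.457, edgeR). It was highest in Dlx5-/- replicate 3, at 22.8 CPM, and its log2 fold change without that library was 0.23.

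Of the type II receptors, Acvr2a and Bmpr2 had estimates below 0 and Acvr2b one near 0 whose sign turned with library totals in place of TMM. Acvr2a, which binds activins and several BMPs, had 43.3, 42.6 and 37.9 CPM in Dlx5-/- and 45.0, 53.2 and 46.1 CPM in the wild type. The groups did not overlap, with an estimate of -0.22 on the log2 scale (SE 0.10; adjusted p = 0.393, edgeR). Acvr2a shares 446 exon bases with Orc4 on the opposite strand, and the use of strand in counting is not given in the sources used here. Bmpr2, the type II receptor specific to BMPs, had 210 to 251 CPM in Dlx5-/- and 246 to 274 CPM in the wild type (log2 fold change -0.20, SE 0.09; adjusted p = 0.422, edgeR). For Acvr2b the estimate was -0.0012 with an interval of -0.49 to 0.49.

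Of the 8 Smads, 3 had an unadjusted p under 0.05, beside 12.8% of all genes, and none passed after adjustment. Within each branch the receptor Smads had estimates of both signs. Smad9, also known as Smad8, is the third receptor Smad of the BMP branch. It lies on chromosome 3 from 54755582 to 54801257 on the plus strand (GENCODE M21, GRCm38). It had 14.7, 14.9 and 11.5 CPM in Dlx5-/- and 19.6, 19.8 and 21.4 CPM in the wild type. All Dlx5-/- values lay below all wild-type values. The log2 fold change was -0.57 (SE 0.14; 95% interval -0.90 to -0.24; unadjusted p = 0.00365, adjusted p = 0.134, edgeR), and it ran from -0.65 to -0.46 with any 1 library left out. Its partners in the branch had small positive estimates. Smad1 had a log2 fold change of 0.080 (-0.11 to 0.27) and Smad5, the most abundant of them, of 0.16 (-0.05 to 0.37). As a share of the summed level per length of Smad1, Smad5 and Smad9, Smad9 made up 10.2%, 9.88% and 7.39% in Dlx5-/- and 13.5%, 13.8% and 14.7% in the wild type. The sum itself was 28.0 ± 1.17 CPM per kilobase in Dlx5-/- and 27.0 ± 0.234 in the wild type.

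In the activin and TGF-beta branch the receptor Smads had estimates in opposite directions. Smad2 had 46.5, 44.2 and 39.8 CPM in Dlx5-/- and 49.4, 53.6 and 50.9 CPM in the wild type. Its groups did not overlap, and the log2 fold change was -0.24 (SE 0.09; unadjusted p = 0.0256, adjusted p = 0.302, edgeR). Smad3, which unlike Smad2 binds DNA directly, had 66.1, 79.2 and 92.3 CPM in Dlx5-/- and 67.2, 57.1 and 58.6 CPM in the wild type. The first Dlx5-/- library lay just under the highest wild-type library. The log2 fold change of Smad3 was 0.38 (SE 0.13; unadjusted p = 0.0181, adjusted p = 0.264, edgeR), and without Dlx5-/- replicate 3 it was 0.25. Smad3 made up 69.2%, 73.9% and 78.6% of the summed level per length of the pair in Dlx5-/-. Its wild-type shares were 68.3%, 62.8% and 64.6%, without overlap. The share of Smad2 is the remainder, so it holds the same information.

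The remaining Smads, Smad4, Smad6 and Smad7, are not receptor Smads. Smad4, the common partner, had 71.8 ± 5.25 CPM in Dlx5-/- and 70.2 ± 3.19 CPM in the wild type, with a log2 fold change of 0.034 (95% interval -0.16 to 0.23). The inhibitory Smads are feedback targets of the pathways. Smad6 had a log2 fold change of -0.14 (-0.57 to 0.29) and Smad7 one of -0.18 (-0.46 to 0.09).

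The Id genes are the classic transcriptional targets of BMP Smads and encode helix-loop-helix proteins that block the DNA binding of basic helix-loop-helix factors. Id4 stood apart from the other members of the family. It had 31.9, 29.1 and 17.0 CPM in Dlx5-/- and 34.4, 50.1 and 54.6 CPM in the wild type, so the groups did not overlap, although the gap between the nearest libraries was small. The log2 fold change was -0.85 (SE 0.25; 95% interval -1.42 to -0.28; unadjusted p = 0.00886, adjusted p = 0.195, edgeR). Id4 was called by DESeq2 (adjusted p = 0.0185) and by edgeR with no filter (adjusted p = 0.00427), within a range of 0.00427 to 0.516 over all settings. Without Dlx5-/- replicate 3, its lowest library, the log2 fold change was -0.61, and without wild-type replicate 1 it was -1.02. Id4 is known for its expression in neural progenitors and in osteoblast precursors. Beside it, the sum of the neuron markers given above was also lower in every Dlx5-/- library than in every wild-type library. Of these markers, Snap25 had a higher estimate (0.37), with 156 CPM in Dlx5-/- replicate 3. Osteoblast markers (6 of 7 tested with lower estimates, Bglap at 0 in every library) summed to 1944, 3596 and 1124 CPM in Dlx5-/- and 3145, 2880 and 3781 CPM in the wild type. Most of this sum was Col1a1, at 1778, 3222 and 1072 CPM in Dlx5-/- and 2807, 2635 and 3064 CPM in the wild type. No tested osteoblast marker had an unadjusted p under 0.05 (edgeR). The part of neurons and osteoblasts in the difference of Id4 was not tested.

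The other Id genes had small differences. Id2 had 84.8, 77.0 and 75.4 CPM in Dlx5-/- and 73.4, 70.4 and 72.4 CPM in the wild type, with groups that did not overlap and a log2 fold change of 0.13 (SE 0.08; adjusted p = 0.534, edgeR). Id1 had a log2 fold change of -0.11 (95% interval -0.37 to 0.16) and Id3 one of 0.13 (-0.12 to 0.38). Id4 made up 6.19%, 6.39% and 4.05% of the summed level per length of the 4 Id genes in Dlx5-/- and 7.79%, 11.0% and 11.0% in the wild type. The sum of the family was 120.4 ± 12.5 CPM per kilobase in Dlx5-/- and 120.9 ± 7.37 in the wild type.

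**Figure D3:**
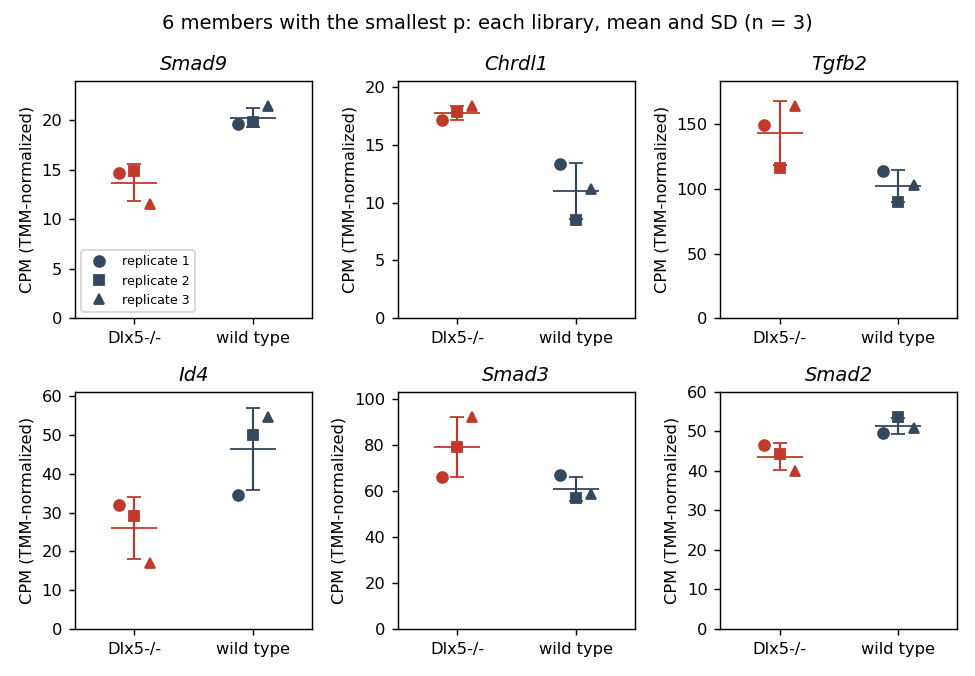
CPM of the 6 genes with an unadjusted p under 0.05 in each library (marker shape gives the replicate number), with mean and SD (n = 3), Dlx5-/- left of wild type. The groups do not overlap for Smad9, Chrdl1, Tgfb2, Id4 and Smad2, and they overlap for Smad3.

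The 250 bases before the RefSeq start site (GRCm38.p6) are shown for 4 of these 6 genes, since Smads and homeodomain factors such as Dlx5 bind DNA. Chrdl1 and Smad2 are not shown. Each runs 5′ to 3′ on the strand of its gene. Letters in capitals mark GGCGCC, a GC-rich site bound by BMP Smads, or CAGAC, a Smad binding element, on either strand; these motifs cannot share bases with each other beyond 1 letter. Id4 lies at chr13:48260866-48261115 (plus strand), Smad9 at chr3:54755332-54755581 (plus strand), Smad3 at chr9:63757995-63758244 (minus strand) and Tgfb2 at chr1:186705990-186706239 (minus strand).
Id4: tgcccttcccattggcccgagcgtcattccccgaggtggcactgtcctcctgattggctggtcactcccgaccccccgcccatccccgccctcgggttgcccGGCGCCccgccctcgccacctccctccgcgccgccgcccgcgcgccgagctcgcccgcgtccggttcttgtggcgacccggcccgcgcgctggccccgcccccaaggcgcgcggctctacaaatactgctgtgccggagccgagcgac
Smad9: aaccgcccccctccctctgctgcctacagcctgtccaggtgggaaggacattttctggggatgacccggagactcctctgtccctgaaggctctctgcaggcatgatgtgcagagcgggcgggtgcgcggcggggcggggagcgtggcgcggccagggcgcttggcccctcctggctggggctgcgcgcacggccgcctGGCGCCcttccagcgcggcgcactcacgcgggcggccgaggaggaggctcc
Smad3: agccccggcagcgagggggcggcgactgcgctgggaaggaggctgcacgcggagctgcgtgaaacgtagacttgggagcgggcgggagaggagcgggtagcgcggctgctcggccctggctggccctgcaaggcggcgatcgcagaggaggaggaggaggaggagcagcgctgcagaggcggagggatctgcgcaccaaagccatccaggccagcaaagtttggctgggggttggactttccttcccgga
Tgfb2: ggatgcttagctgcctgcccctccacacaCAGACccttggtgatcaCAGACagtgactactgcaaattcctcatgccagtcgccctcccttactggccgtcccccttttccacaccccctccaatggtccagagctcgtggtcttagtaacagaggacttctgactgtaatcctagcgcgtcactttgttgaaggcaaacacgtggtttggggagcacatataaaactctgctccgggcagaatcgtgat

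Id4 and Smad9 each held 1 GGCGCC and no CAGAC in this window, Tgfb2 held 2 CAGAC and no GGCGCC, and Smad3 held neither. Over the 27 genes of the list that matched the promoter table, with 33 windows, GGCGCC was found in 27.3% of windows, beside 9.59% of all 32851 windows. CAGAC was found in 48.5% of these windows and 42.2% of all windows. TAATTA, the core bound by many homeodomain proteins, was found in 0 of the 33 windows and in 4.84% of all windows. The windows of these genes had a median GC content of 64.0% beside 52.4% for all windows, and all motifs were read on both strands. These matches describe the letters only.

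Among the antagonists, Chrdl1 was the gene with the clearest separation. Chrdl1, or ventroptin, is a secreted chordin-like protein that binds BMPs, and its gene lies on chromosome X from 143285674 to 143394262 on the minus strand. It had 17.2, 17.8 and 18.3 CPM in Dlx5-/- and 13.4, 8.52 and 11.2 CPM in the wild type. The Dlx5-/- libraries lay close together and all above the wild type. The log2 fold change was 0.69 (SE 0.18; 95% interval 0.28 to 1.11; unadjusted p = 0.00476, adjusted p = 0.148, edgeR). It passed with edgeR and no filter (adjusted p = 0.0456), in a range of 0.0456 to 0.417 over all settings, and its estimate ran from 0.53 to 0.86 with 1 library left out. Chrdl1 made up 17.0%, 17.4% and 19.2% of the summed level per length of the secreted antagonists Nog, Grem1, Chrdl1 and Fst in Dlx5-/- and 14.4%, 12.8% and 14.7% in the wild type.

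For the other 4 antagonists listed the groups overlapped. Nog, which encodes the BMP trap noggin, had 14.1, 12.2 and 8.15 CPM in Dlx5-/- and 12.5, 6.90 and 8.05 CPM in the wild type (log2 fold change 0.32, 95% interval -0.34 to 0.98). Grem1, which encodes gremlin, had 5.92 to 12.8 CPM in Dlx5-/- and 5.40 to 9.34 CPM in the wild type, with its highest value in Dlx5-/- replicate 3. Fst, which encodes the activin-binding protein follistatin, had a log2 fold change of 0.14 (-0.24 to 0.52). Bambi, a transmembrane pseudoreceptor, had one of -0.20 (-0.66 to 0.27). None of these intervals excluded 0. With Chrdl1 included, the secreted antagonists summed to 14.9, 15.1 and 14.1 CPM per kilobase in Dlx5-/-. The wild-type sums were 13.8, 9.83 and 11.3, without overlap. Since Chrdl1 is part of this sum, its separation is not a result apart from that of Chrdl1.

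The TGF-beta ligands were led by Tgfb3 and Tgfb2. Tgfb2, which acts in mesenchyme and in the developing skeleton, lies on chromosome 1 from 186622792 to 186705989 on the minus strand. It had 149.7, 115.8 and 163.7 CPM in Dlx5-/- and 113.7, 89.5 and 103.2 CPM in the wild type. All Dlx5-/- values lay above all wild-type values, with Dlx5-/- replicate 2 just above wild-type replicate 1. The log2 fold change was 0.49 (SE 0.14; 95% interval 0.16 to 0.81; unadjusted p = 0.00826, adjusted p = 0.188, edgeR). Tgfb2 was called by DESeq2 (adjusted p = 0.0307) and by edgeR with no filter (adjusted p = 0.0147), in a range of 0.0147 to 0.536 over all settings. Without Dlx5-/- replicate 3, its highest library, the log2 fold change was 0.38. Tgfb2, Smad3 and Chrdl1 were highest, and Smad9, Smad2 and Id4 lowest, in Dlx5-/- replicate 3. These are all the listed genes with an unadjusted p under 0.05 (edgeR). In that library the mature brain markers summed to 217 CPM, and the part of those cells in these genes was not tested.

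Tgfb3, the ligand needed for fusion of the palatal shelves, had 89.8, 102.3 and 69.3 CPM in Dlx5-/- and 93.6, 83.1 and 90.1 CPM in the wild type, with a log2 fold change of -0.032 (95% interval -0.35 to 0.28). Tgfb1, which is made by many cell types including blood and endothelial cells, had 12.2, 14.6 and 10.4 CPM in Dlx5-/- and 13.2, 14.0 and 19.6 CPM in the wild type (log2 fold change -0.33, SE 0.20; adjusted p = 0.565, edgeR). Per length, Tgfb2 made up 47.2%, 37.7% and 55.6% of the 3 ligands in Dlx5-/- and 39.3%, 36.1% and 36.9% in the wild type, and these shares overlapped.

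**Figure D4:**
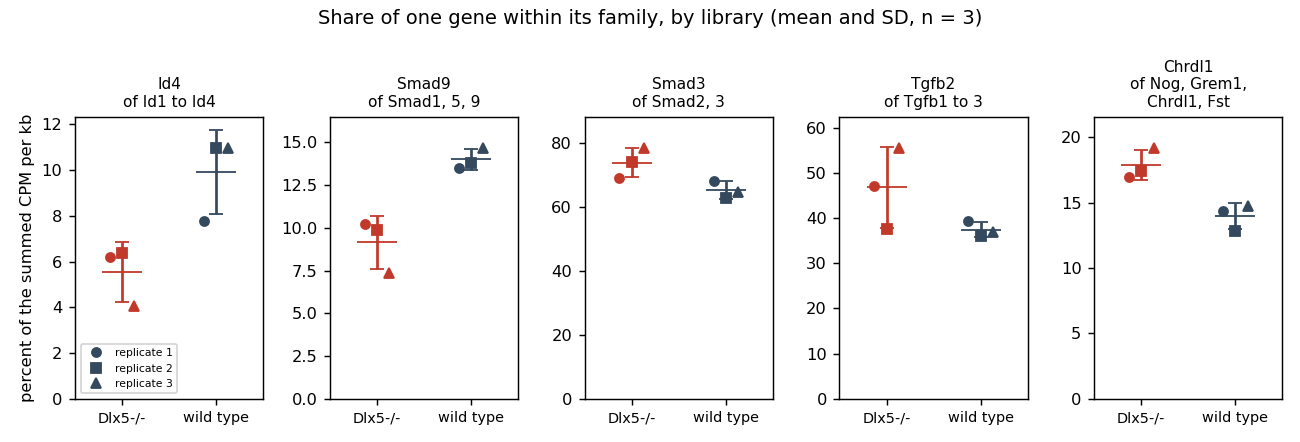
Share of 1 gene in the summed CPM per kilobase of its family in each library (marker shape gives the replicate number), with mean and SD (n = 3), Dlx5-/- left of wild type. Shares do not overlap for Id4, Smad9, Smad3 and Chrdl1 and overlap for Tgfb2. These genes were picked from the 6 with an unadjusted p under 0.05, and no test was run on shares. Shares of Smad2, Smad5 and Bmp2, not shown, do not overlap either.

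The intervals of the TGF-beta receptors all lay within a 1.5-fold change. Log2 fold changes were 0.086 for the type I receptor Tgfbr1 (95% interval -0.11 to 0.28) and -0.086 for the type II receptor Tgfbr2 (-0.33 to 0.16). The co-receptor betaglycan, encoded by Tgfbr3, had one of -0.12 (-0.37 to 0.13). Ltbp1, which tethers latent TGF-beta in the matrix, had 84.9 to 126.7 CPM in Dlx5-/- and 86.9 to 99.5 CPM in the wild type. Tgfbi had 161 ± 17.3 CPM in Dlx5-/- and 137 ± 13.6 CPM in the wild type (log2 fold change 0.23, SE 0.11; adjusted p = 0.425, edgeR).

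The activin subunits were the lowest of the 40 genes per length. Inhba had 3.79, 5.33 and 5.43 CPM in Dlx5-/- and 5.94, 5.52 and 7.19 CPM in the wild type, without overlap (log2 fold change -0.34, SE 0.24; adjusted p = 0.606, edgeR). Inhbb had 2.13, 3.48 and 6.11 CPM in Dlx5-/- and 2.70, 1.30 and 1.72 CPM in the wild type, and its log2 fold change of 1.06 (95% interval -0.01 to 2.12) was 0.56 without Dlx5-/- replicate 3. The subunits thus had estimates of opposite sign, and neither passed (Inhbb adjusted p = 0.394, edgeR).

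Among 85 further genes of the pathways, listed from textbook knowledge, 65 passed the filter and 0 were called by edgeR, with 7 at an unadjusted p under 0.05 (5 higher and 2 lower; 10.8%, beside 12.8% of all genes). The gene of these with a mean under 5 CPM was Gdf5, a BMP-family ligand of joints, described here after its values were seen. Gdf5 had 6.63, 5.54 and 4.38 CPM in Dlx5-/- and 3.45, 1.62 and 2.44 CPM in the wild type. Its groups did not overlap, and its estimate was 1.14 on the log2 scale (SE 0.34; unadjusted p = 0.00949, adjusted p = 0.202, edgeR). The other 6 had a mean of at least 5 CPM. Rgma, a BMP co-receptor that is also an axon guidance molecule, had 74.5 ± 12.3 CPM in Dlx5-/- and 54.6 ± 4.20 CPM in the wild type (log2 fold change 0.45; adjusted p = 0.170, edgeR). Skil, a Smad corepressor induced by TGF-beta, had 77.4 ± 4.11 CPM in Dlx5-/- and 95.2 ± 8.71 CPM in the wild type (-0.30; adjusted p = 0.211, edgeR). Bmp1, a procollagen protease that also cleaves chordin, had 54.2 ± 3.81 CPM in Dlx5-/- and 44.4 ± 4.58 CPM in the wild type (0.29; adjusted p = 0.283, edgeR). Atoh8, a BMP-responsive transcription factor, had 12.3 ± 1.59 CPM in Dlx5-/- and 8.54 ± 1.25 CPM in the wild type (0.52; adjusted p = 0.292, edgeR). Hfe2, or hemojuvelin, a BMP co-receptor of muscle and liver, had 10.1 ± 3.96 CPM in Dlx5-/- and 4.68 ± 2.11 CPM in the wild type (1.09; adjusted p = 0.312, edgeR), beside skeletal muscle markers that summed to 950 to 2477 CPM in Dlx5-/- and 763 to 1320 CPM in the wild type. Lrrc32, which holds latent TGF-beta on the cell surface, had 11.3 ± 0.871 CPM in Dlx5-/- and 16.6 ± 4.66 CPM in the wild type (-0.55; adjusted p = 0.342, edgeR).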

How the data were processed

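RNA of the mouse embryonic soft palate was sequenced in 3 Dlx5-/- and 3 wild-type libraries. The deposited values are estimated counts per gene, not brought to a common total. STAR 2.4.1d, Partek and mm10 are named, per the submitters' processing notes; no annotation, counting setting or strand option is given in the sources used here. Columns were assigned by the match of their names to the sample labels, and 1 column matched none and was not used. Counts were rounded, and 16218 genes with a mean of at least 1 CPM over the 6 libraries were tested with edgeR 4.0.16 (R 4.3.3; quasi-likelihood, TMM factors, no block, Benjamini-Hochberg at 0.05 over all genes). Standard errors come from the F statistic.

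The members and lists were chosen with earlier results of these data known, so no test over a list was run. All 40 members are named, with the values of each library where the unadjusted p was under 0.05 or the groups did not overlap. Of the other pathway genes, those with an unadjusted p under 0.05 and a mean of at least 5 CPM are named. Lengths are merged exons of GENCODE M21 (GRCm38, also called mm10). The exons of 9 members overlap a gene on the opposite strand. For Bmp5 this overlap covers 46.7% of its exon bases (Gm26903). Alternatives used DESeq2 1.42.0 and limma 3.58.1. The edgeR script was tested on simulated counts. Figures were drawn with matplotlib 3.10.9.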

Additional observations from a re-analysis of the deposited data

How the results depend on the processing

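The count of members past the threshold was 0 with edgeR and stayed 0 under every alternative but DESeq2 (2) and no filter (3). Among the other pathway genes it was 1 with no filter and otherwise 0. Over all genes, edgeR called 1 of 16218. It called 41 with library totals, 679 of 29870 with no filter and 74 of 12523 with a filter of 5 CPM. DESeq2 called 506, limma-trend 97 and limma-voom 0. With 1 library left out edgeR called 0 to 164, the highest without Dlx5-/- replicate 3. Same-numbered libraries did not deviate together (correlations of -0.014, -0.011 and 0.020 over 3 pairs), and 0 of 6 libraries correlated best with its own number. With a replicate block 0 genes and 0 members were called.

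Signs held under all alternatives for 30 members and turned for 10, each with a main estimate of at most 0.25 in size. Acvr2b (-0.0012) was 0.017 with library totals, 0.011 with no filter, 0.0017 with limma-trend and 0.020 with limma-voom. With 1 library left out the ranges were -0.20 to 0.18 for Acvr2b, -0.22 to 0.11 for Bmp3, -0.077 to 0.097 for Bmp4, -0.43 to 0.14 for Bmp6, -0.013 to 0.18 for Bmp7, -0.072 to 0.34 for Gdf10, -0.0093 to 0.080 for Smad4, -0.28 to 0.0099 for Smad6, -0.17 to 0.11 for Tgfb3 and -0.070 to 0.24 for Ltbp1. Role medians then ran from -0.077 (without Dlx5-/- replicate 1) to 0.13 for BMP ligands, -0.12 to 0.048 for BMP and activin receptors, -0.094 to 0.027 for Smads, -0.066 (without Dlx5-/- replicate 1) to 0.069 for Id genes, 0.082 to 0.26 for antagonists, 0.064 to 0.57 for activin subunits, -0.17 to 0.11 for TGF-beta ligands, -0.16 to -0.018 for TGF-beta receptors and 0.11 to 0.23 for Ltbp1 and Tgfbi. With a filter of 5 CPM the activin subunit median was -0.35, since Inhbb was removed. The cause of the other changes was not tested.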
